A study of Mus musculus with 9 samples.

Results

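Transcripts of 10 genes were followed in the irradiated mouse submandibular gland: the ErbB receptors Egfr, Erbb2 and Erbb3, the neurotrophin receptors Ngfr and Ntrk2, and the ErbB ligands Areg, Tgfa, Hbegf, Btc and Nrg1. The genes were chosen by name, as receptors for EGF-type factors and neurotrophins together with ligands of the ErbB family other than Egf, and all 10 were found among the 54532 genes of the count table. Of these 10, 9 passed a filter on low counts that left 15224 genes for testing, and Areg, with 10 reads in 9 libraries, did not. All glands came from wild-type (WT) mice given 10 Gy of radiation, and 3 groups of 3 samples were taken 30, 60 or 90 days later. RNA was extracted from tissue sections of the gland, so each library mixes all of its cell types, and fewer cells of a type and less RNA per cell cannot be told apart. Non-irradiated glands were not analysed here. Age and sex are not given, and the age of the mice cannot be told apart from time since irradiation. Nothing in the labels says that each sample is a separate animal, so the p-values below measure only the spread between these samples.

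ErbB receptors are tyrosine kinases at the cell surface that pair with one another when a ligand binds and signal through the MAP kinase and PI3 kinase pathways. Their ligands are made as membrane-bound precursors that proteases cut free. Neurotrophins act through Trk kinases and through Ngfr, also called p75NTR, a receptor of the TNF receptor family that binds all neurotrophins and lacks a kinase domain. In rodents the granular ducts of the submandibular gland store and secrete EGF, the product of Egf, and males make far more of it than females.

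Ngfr was the only member that passed the test. It was higher 60 and 90 days after irradiation than at 30 days. Egfr, Erbb2, Erbb3, Ntrk2 and the tested ErbB ligands other than Egf did not pass the test in any comparison. The ligands Areg, Ereg, Epgn and Nrg3 did not pass the filter on low counts and were not tested. The Ngfr call at 60 days was lost in 3 of 18 alternative analyses and that at 90 days in 5 of 18. Not passing does not show that a member was unchanged. From 30 to 60 days Ngfr rose 2.27-fold and Egf 4.4-fold, and the ratio of Egf to Egfr was higher in every 60-day and 90-day library than in any 30-day library. Hbegf was lowest in the 3 libraries at 90 days, but its difference did not pass the adjustment over all genes.

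Total counts ran from 16541396 to 26065856 per library, and between 31.4% and 42.8% of them belonged to Mucl2, an abundant secreted acinar protein. Levels are given as CPM, the counts of a gene scaled to the library total after TMM scaling, and a floor of 3 counts corresponded to between 0.101 and 0.213 CPM. TMM factors lay between 0.824 and 1.19, and the lowest belonged to 30-day sample 1. Acinar markers were present: mean CPM at 30, 60 and 90 days was 478.8, 346.3 and 322.7 for the water channel Aqp5 and 365.2, 510.6 and 297.7 for the secretory transcription factor Bhlha15, whereas the acinar marker Smr3a was at or near 0 in every library. The lymph node marker Ccl21a had no counts, and the sublingual gland markers together held at most 15 CPM in a library, a level that differed with time as given beside Ngfr.

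Compared per kilobase of exon, the receptor transcripts covered a wide range (the plot of levels per length). Among the receptors ranked, Ngfr had the highest mean, at 24.4 ± 8.74 CPM per kilobase (SD, n = 9 libraries). It was followed by Erbb3 at 13.1 ± 1.51, Erbb2 at 8.15 ± 0.815 and Egfr at 2.07 ± 0.219. The mean of Ngfr was 14.2, 32.3 and 26.8 at 30, 60 and 90 days, so its SD includes differences between time points. The co-receptor Sort1, not ranked, averaged 17.27 CPM per kilobase over the 9 libraries, between Ngfr and Erbb3. Its mean was 142, 132.6 and 117.6 CPM at 30, 60 and 90 days. At 90 against 30 days its log2 difference was -0.27 (adjusted p = 0.172 in edgeR). Ntrk2 was far lower, at 0.158 ± 0.0291 CPM per kilobase. In 8 of 9 libraries Ngfr exceeded Erbb3 per length, and the exception was 30-day sample 1. The ranges of Erbb3, Erbb2 and Egfr over the 9 libraries did not overlap one another. Among receptors outside the 10 genes, Ntrk3, which binds neurotrophin 3, stood at 0.508 ± 0.128 CPM per kilobase and Erbb4, the fourth ErbB receptor, at 0.455 ± 0.114, and these neighbours were not separated, as Ntrk3 was the higher in 5 of 9 libraries.

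**Figure D1:**
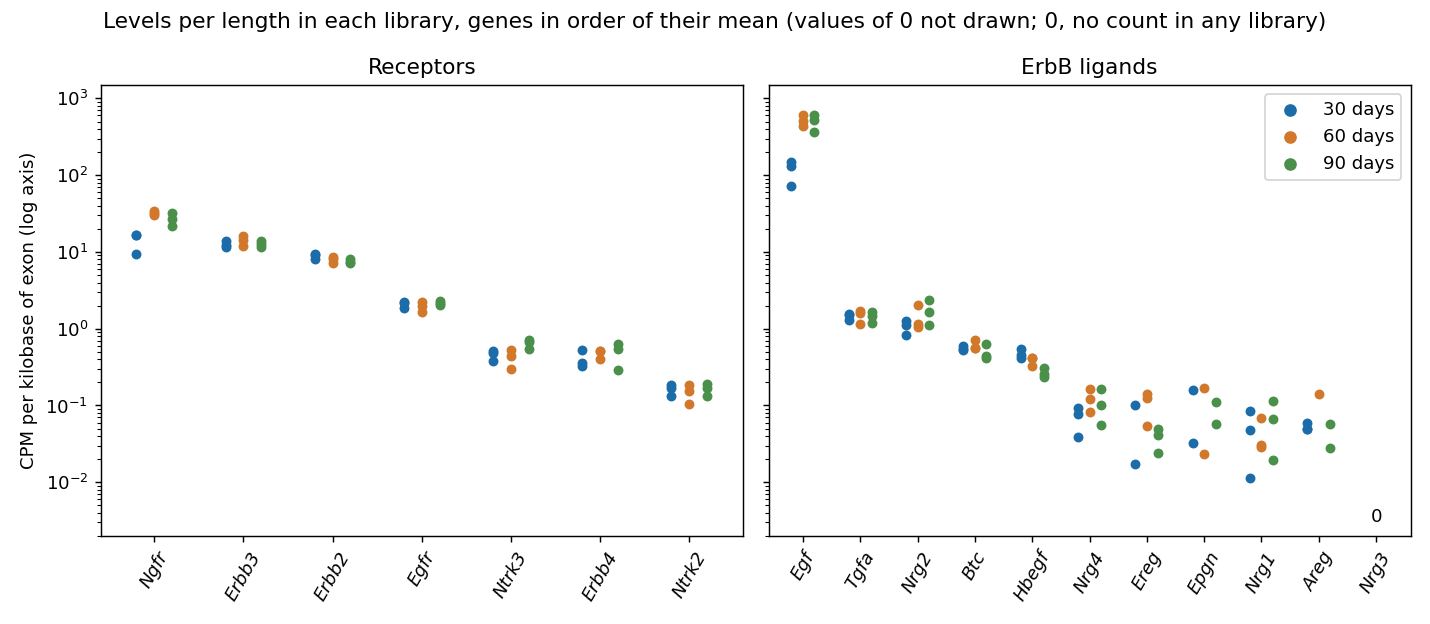
CPM per kilobase of exon (log axis) of 7 receptors and 11 ErbB ligands in each of the 9 libraries, coloured by days after irradiation. Ngfr exceeded Erbb3 in 8 of 9 libraries, Egf lay far above every other ligand, and Nrg3 had no counts.

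Among the ligands, Egf stood at 378 ± 211 CPM per kilobase over all 9 libraries and the highest value of a member ligand in a library was 1.7. Tgfa, which encodes transforming growth factor alpha, was the most abundant member ligand at 1.46 ± 0.196 CPM per kilobase, close to Nrg2, a neuregulin outside the 10 genes, at 1.40 ± 0.511 with overlapping ranges. Btc (betacellulin) followed at 0.554 ± 0.0933 and Hbegf (heparin-binding EGF-like growth factor) at 0.376 ± 0.101, with Btc above Hbegf in 8 of 9 libraries. Nrg1, the neuregulin ligand of Erbb3 and Erbb4, reached 0.0529 ± 0.0344 and Areg (amphiregulin) 0.0425 ± 0.0448 CPM per kilobase, with ranges that overlapped each other and those of Ereg and Epgn. Lengths of a gene's principal transcript, a choice made after seeing the data, left the order of the 4 most abundant receptors and of the 5 most abundant ligands as it was and raised Egf to 895 CPM per kilobase and Nrg1 to 0.223.

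Of all ErbB-ligand transcript per kilobase, Egf made up 96.53% ± 1.42 (SD, n = 3) at 30 days, 99.15% ± 0.254 at 60 days and 99.15% ± 0.122 at 90 days. The libraries at 30 days gave 94.9%, 97.31% and 97.39%, below the lowest value of the other time points, 98.86%. The other 10 ligands summed to 3.83 ± 0.217, 4.293 ± 0.671 and 4.207 ± 0.782 CPM per kilobase at 30, 60 and 90 days, with overlapping ranges. Egf itself averaged 117.6, 516.3 and 500.3 CPM per kilobase.

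Ngfr (ENSMUSG00000000120, GRCm38 chr11:95568818-95587735, minus strand) is the shared receptor of the neurotrophins. Its upstream sequence is shown because it is the only member that passed the test, beside that of Egf, the ErbB ligand that rose over the same interval. Both are RefSeq GRCm38.p6 windows on the minus strand, written 5′ to 3′ and ending before the annotated transcript (Ngfr, chr11:95587736-95587948, 213 bases; Egf, chr3:129755323-129755572, 250 bases), with GC boxes (GGGCGG on either strand) in capitals.
Ngfr: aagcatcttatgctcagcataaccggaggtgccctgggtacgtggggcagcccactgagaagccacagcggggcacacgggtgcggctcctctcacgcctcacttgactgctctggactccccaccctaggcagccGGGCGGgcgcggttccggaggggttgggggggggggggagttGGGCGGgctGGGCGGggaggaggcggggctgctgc
Egf: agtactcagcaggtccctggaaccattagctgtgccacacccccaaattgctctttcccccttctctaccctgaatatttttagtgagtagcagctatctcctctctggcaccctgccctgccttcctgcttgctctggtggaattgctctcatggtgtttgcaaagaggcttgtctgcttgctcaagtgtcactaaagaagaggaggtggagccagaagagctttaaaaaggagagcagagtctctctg
The 250 bases before the RefSeq start of Ngfr are 70.4% G or C and hold 4 GC boxes, ending 108, 66, 57 and 10 bases before that start. The last of these lies in the 37 bases that GENCODE places inside the transcript and that are not printed. At least 1 GC box occurs in 32.7% of the 32851 promoter windows of this length, and at least 4 in 4.09%. The Egf window is 50.4% G or C, against a median of 52.4% over all windows, and holds no GC box. Neither window holds a TATA box (TATAAA, 12.4% of windows), a steroid receptor half-site (AGAACA, 16.1%), an AP-1 site (TGACTCA, 4.46%), a cAMP response element (TGACGTCA, 1.55%) or an E-box (CACGTG, 6.02%) on either strand. Only these exact letters were searched, so variants of a motif may be present. No motif overlapped another in the Ngfr window. Of the 7 members with such a window, Tgfa holds 2 GC boxes, Egfr and Areg 1 each, and Erbb2, Btc and Ntrk2 none. A match is a run of letters and was not tested as a binding site.

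The level of Ngfr was 32.8, 57.1 and 56.5 CPM in the 3 libraries at 30 days, 105, 117 and 112 CPM at 60 days, and 74.1, 92.7 and 110 CPM at 90 days. All 60-day and 90-day libraries lay above all 30-day libraries, and the 60-day and 90-day ranges overlapped. Means were 48.8 ± 13.8, 111 ± 5.99 and 92.4 ± 18.1 CPM (SD, n = 3 each). Ngfr was 2.27-fold higher at 60 than at 30 days (log2 fold change 1.18 ± 0.20 SE, 95% interval 0.75 to 1.62, adjusted p = 0.0134, edgeR's quasi-likelihood test). At 90 days it was 1.89-fold the 30-day level (log2 fold change 0.92 ± 0.20, interval 0.48 to 1.35, adjusted p = 0.0276 in the same test). From 60 to 90 days the log2 difference was -0.27 ± 0.19, with an interval from -0.69 to 0.16 (adjusted p = 0.672). The call at 60 days was lost when any one 60-day library was left out, with adjusted p = 0.0776, 0.0677 and 0.061 without samples 1, 2 and 3 and log2 fold changes between 1.15 and 1.23. The call at 90 days was lost without 60-day sample 1 (adjusted p = 0.0763) or 3 (0.0628), without 90-day sample 2 (0.104) or 3 (0.0758), and in a fit of the 6 libraries alone (0.119). Without 30-day sample 1, the lowest library, Ngfr differed by 0.97 at 60 days (adjusted p = 0.00116) and by 0.70 at 90 days (adjusted p = 0.0149) on the log2 scale.

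The comparison of 60 with 30 days called 1 of the 9 tested members, Ngfr, against 1.56% of all 15224 genes. That of 90 with 30 days also called Ngfr alone, against 3.57% of all genes. From 60 to 90 days no member was called, against 0.256% of all genes. None had an unadjusted p under 0.05 in edgeR, against 1637 of 15224 genes, nor did DESeq2 or limma-voom call one. The test for any difference among the 3 time points called Ngfr (adjusted p = 0.0182), against 3.29% of genes. No member was called for 60 days against the mean of 30 and 90 days in edgeR, where 0.256% of genes were. There 1 member, Ngfr, had an unadjusted p under 0.05 (log2 difference 0.73, adjusted p = 0.138), against 1439 of 15224 genes. DESeq2 called Ngfr in that comparison with adjusted p = 0.000796, and limma-voom did not. The 2 comparisons against 30 days share the 30-day libraries, so they are not separate evidence.

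CPM ranges at 30 and 60 days did not overlap for Ngfr and Hbegf, 2 of 9 tested members, where 16.9% of all genes did not overlap. The same 2 members had separate ranges at 30 and 90 days, against 23.2% of all genes, and Hbegf alone at 60 and 90 days, against 15.9%. The median log2 fold change of the tested members was -0.10 at 60 against 30 days, -0.064 at 90 against 60 days and 0.0036 at 90 against 30 days. Over all genes the medians were -0.0025, 0.00077 and 0.013.

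**Figure D2:**
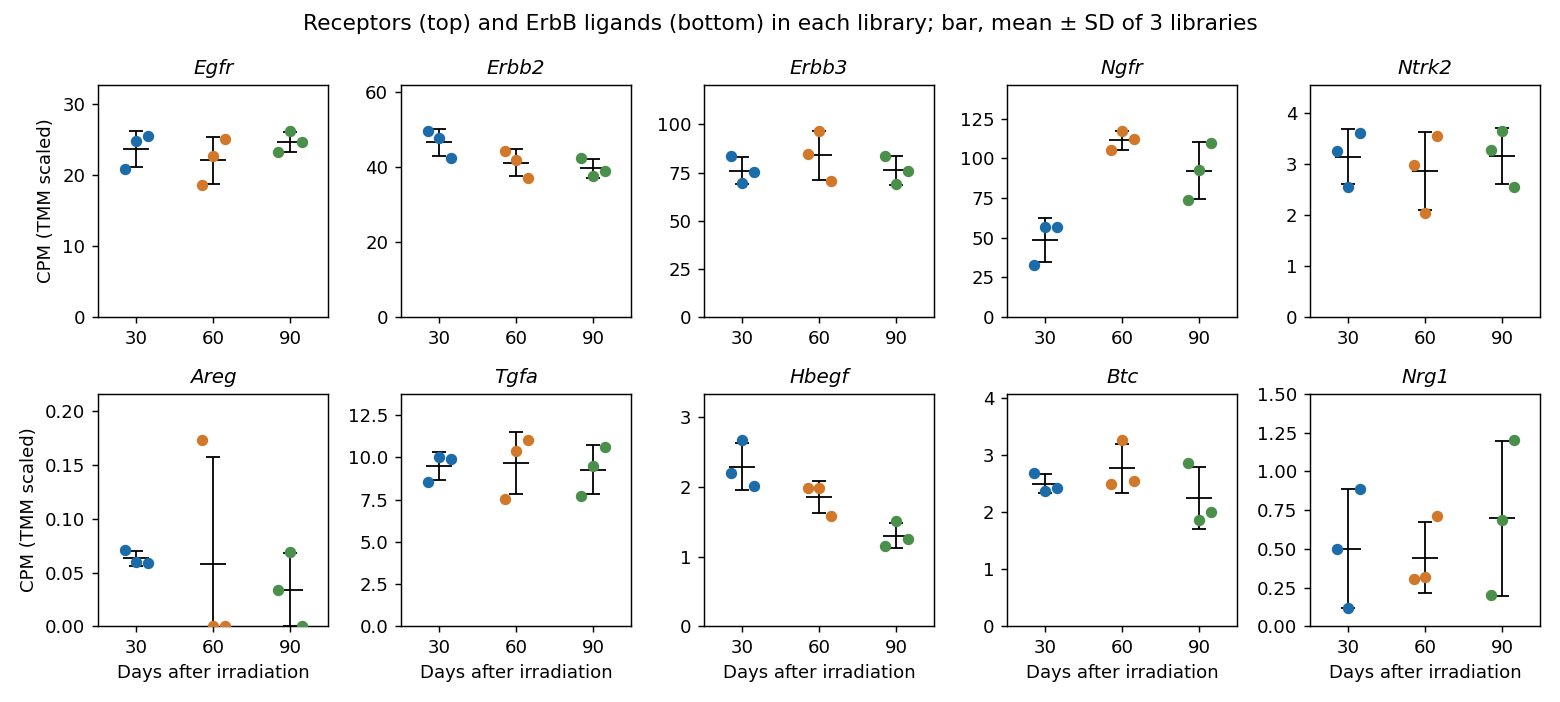
CPM of the 10 members in each library at 30, 60 and 90 days after irradiation, receptors above and ligands below; points are libraries, and bars show the mean and SD of 3. Ngfr at 60 and 90 days lay wholly above 30 days, Hbegf lay in 3 separate ranges, and the other members overlapped between time points.

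**Figure D3:**
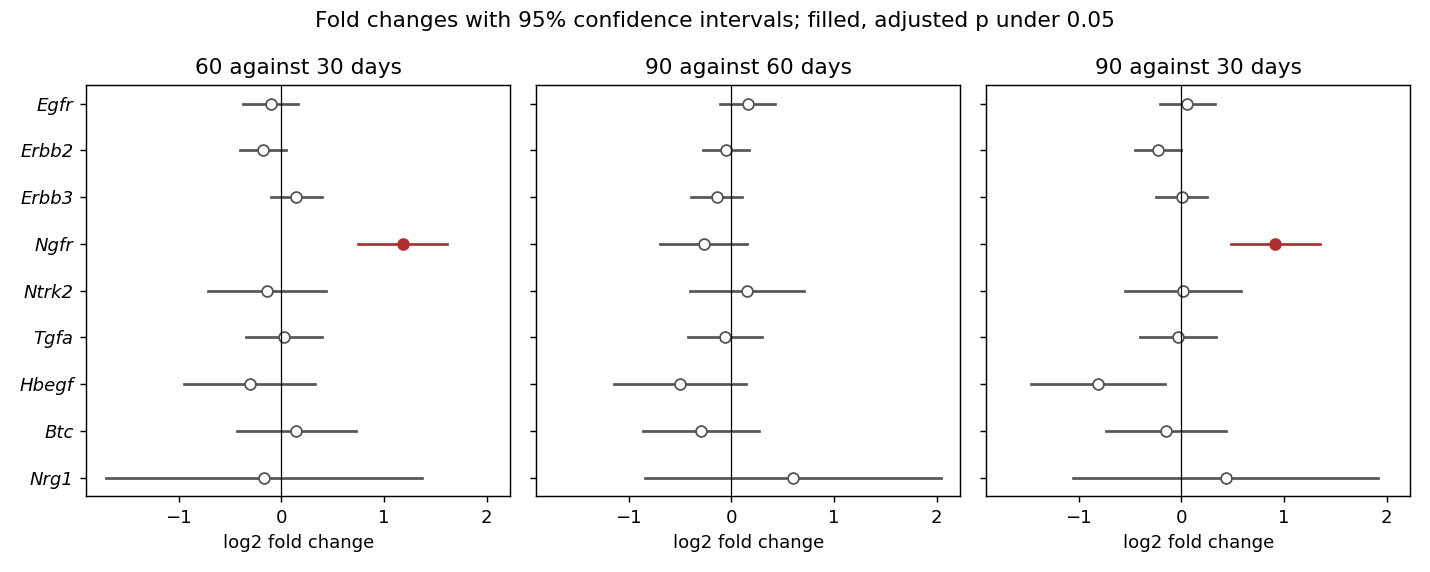
Log2 fold changes of the 9 tested members with 95% confidence intervals from edgeR's quasi-likelihood fit, in 3 panels for the pairwise comparisons. The filled points, with adjusted p under 0.05, are Ngfr at 60 against 30 days (1.18) and at 90 against 30 days (0.92).

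Schwann cells and sensory nerve fibres express Ngfr, so their markers were read in the same libraries. The summed level of 11 Schwann cell and nerve markers, of which 0 were at 0, was 183 to 190 CPM at 30 days, 172 to 187 at 60 days and 158 to 192 at 90 days, and none of the 11 was called in any comparison. Without Sox10, which acinar cells also express, the sums were 69.3 to 78.9, 61.7 to 75 and 66.5 to 84.4 CPM. Relative to the 30-day mean, the sum of all 11 was 0.952-fold at 60 days and 0.94-fold at 90 days. Without Sox10 it was 0.928-fold and 1.03-fold. The part of these cells in the Ngfr difference was not tested. The neuronal genes Uchl1 and Tubb3 reached 4.99 and 4.96 CPM in 90-day sample 1, and at most 1.31 and 1.68 in the others.

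Markers of granular and striated ducts and of myoepithelial and smooth muscle cells had higher mean sums at the times when Ngfr was higher. The 10 granular and striated duct markers other than Egf summed to 21360 to 29468 CPM at 30 days, 42143 to 49680 at 60 days and 35493 to 50461 at 90 days. Relative to the 30-day mean this was 1.74-fold and 1.67-fold, against 2.28-fold and 1.89-fold for Ngfr. Klk1, the main tissue kallikrein, carried most of this sum at 30 days, with means of 19200, 22450 and 19610 CPM at 30, 60 and 90 days, and did not pass the test at 60 against 30 days (log2 fold change 0.23, adjusted p = 0.655 in edgeR). With Egf included, the median log2 fold change over the 11 markers was 1.67 at 60 and 1.71 at 90 against 30 days. Klk1b3, Klk1b9, Klk1b26 and Crisp3 were 3.36-fold, 3.79-fold, 3.18-fold and 3.43-fold higher at 60 than at 30 days, each a larger fold than that of Ngfr; reads of the 3 kallikreins may be shared with close paralogs. With Egf included, 6 of these 11 markers rose at 60 against 30 days, where 1.56% of all genes were called. Among the 6 were the renin gene Ren1 (log2 fold change 3.38, adjusted p = 0.0163) and the kallikrein Klk1b26 (1.67, adjusted p = 0.00212). The duct channel gene Scnn1a did not pass the test (-0.07, adjusted p = 0.823). In sign, 8 of the 11 were positive at 60 and 10 at 90 against 30 days. Kcne1, also in this list, went the other way and fell to 0.298-fold at 90 against 30 days (adjusted p = 0.00684 in edgeR). At 60 against 30 days Kcne1 (log2 fold change -1.155, adjusted p = 0.106) and Ascl3 (-0.27, adjusted p = 0.383) were lower without passing.

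The 7 myoepithelial and smooth muscle markers summed to 301 to 422, 453 to 497 and 410 to 575 CPM at 30, 60 and 90 days, and none of the 6 tested was called. Every 60-day sum lay above every 30-day sum. All 6 had positive log2 fold changes at 60 and at 90 against 30 days, as had 7557 and 7929 of all 15224 genes. In edgeR 3 and 4 had an unadjusted p under 0.05 there, against 1883 and 2560 of all 15224 genes. The 8 duct and basal markers, keratins and Trp63, summed to 660 to 667, 589 to 776 and 668 to 787 CPM, most of it from Krt8, Krt18 and Krt7. Within this list 1 of 8 was called at 90 against 30 days, against 3.57% of all genes. In edgeR 4 of the 8 had an unadjusted p under 0.05 there, against 2560 of 15224 genes. The called gene was Trp63, a basal cell transcription factor, at 1.89-fold (adjusted p = 0.0289 in edgeR), the same fold as Ngfr, while the basal keratin gene Krt5 was at 1.42-fold (adjusted p = 0.0609). At 60 against 30 days none of the 8 was called, and 0 had an unadjusted p under 0.05.

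The acinar markers without Mucl2 summed to 11623 to 13665, 12605 to 16463 and 6731 to 10450 CPM, with means 1.2-fold and 0.666-fold of that at 30 days. Of 6 acinar markers tested, Amy1, a salivary amylase gene, rose 2.11-fold at 60 against 30 days (adjusted p = 0.000954 in edgeR). Aqp5 fell to 0.674-fold at 90 against 30 days (adjusted p = 0.0113), and Bhlha15 to 0.583-fold at 90 against 60 days (adjusted p = 0.00581). The 5 sublingual gland markers summed to 0.496 to 2.49 CPM at 30 days, 2.81 to 9.85 at 60 days and 2.16 to 15 at 90 days, so that the 60-day libraries lay above the 30-day ones. The median log2 fold change of the 3 tested was 1.86 at 60 and 2.28 at 90 against 30 days, and none was called in edgeR. There 0 and 2 had an unadjusted p under 0.05, against 1883 and 2560 of all 15224 genes. Fibroblast markers summed to 352 to 562, 343 to 496 and 431 to 504 CPM, immune markers to 56.4 to 95, 60.4 to 90.7 and 77.9 to 119, and endothelial markers to 56.5 to 64.9, 54.9 to 56.7 and 59.2 to 70.2. The part of these cell types in the Ngfr difference was not tested.

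**Figure D4:**
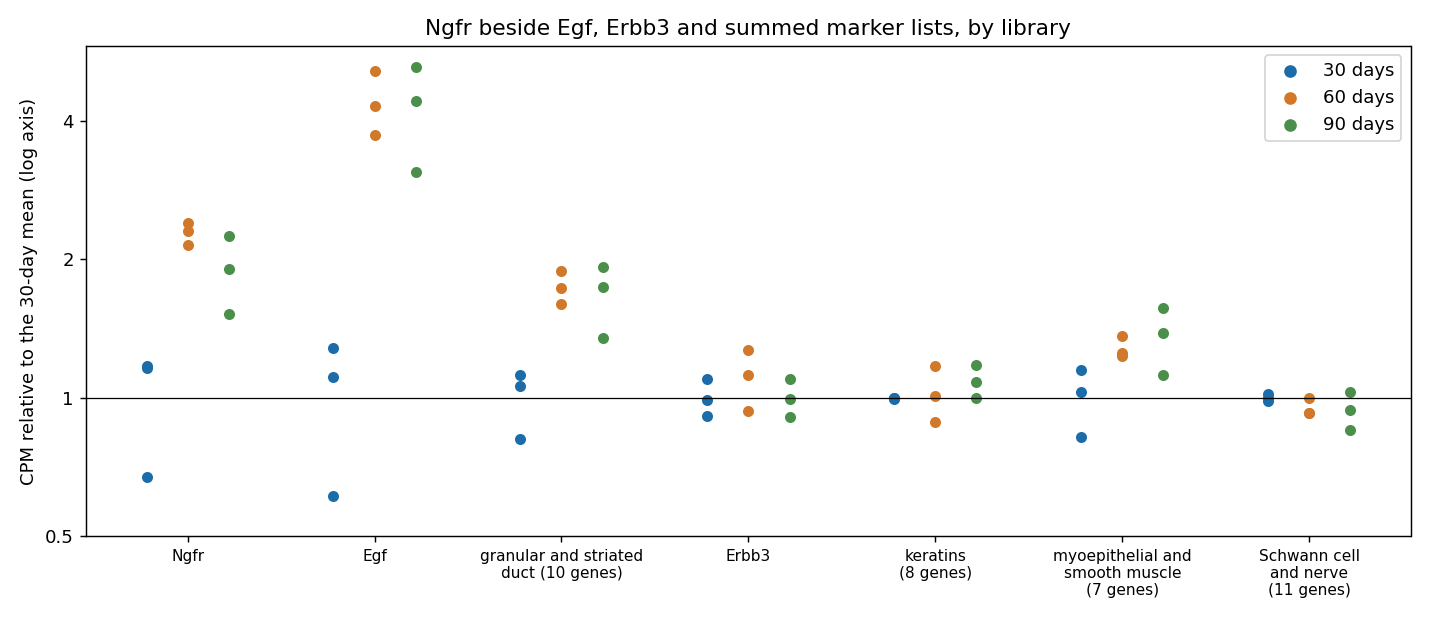
CPM in each library relative to the 30-day mean (log axis) for Ngfr, Egf, Erbb3 and summed marker lists. Ngfr, Egf and the granular and striated duct sum were higher in every 60-day and 90-day library than at 30 days, whereas Erbb3 and the Schwann cell and nerve sum overlapped with 30 days at both later times and the keratin list at 60 days. The myoepithelial and smooth muscle sum was higher than at 30 days in every 60-day library and overlapped with 30 days at 90 days.

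Ntrk2 (ENSMUSG00000055254, chr13:58806569-59133970, plus strand), the receptor kinase of brain-derived neurotrophic factor, was the least abundant member receptor. Its level was 3.26, 2.56 and 3.61 CPM at 30 days, 2.98, 2.04 and 3.55 at 60 days and 3.27, 3.64 and 2.56 at 90 days, with ranges that overlapped throughout. The log2 differences were -0.14 (95% interval -0.71 to 0.44) at 60 days and 0.015 (-0.55 to 0.58) at 90 days against 30 days. The interval at 60 days included a 1.5-fold fall but not a 1.5-fold rise.

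Erbb3 (ENSMUSG00000018166, chr10:128567523-128589652, minus strand), a neuregulin receptor whose own kinase is nearly inactive, was the most abundant ErbB receptor. It measured 83.4, 69.4 and 75.2 CPM at 30 days, 84.9, 96.4 and 70.9 at 60 days and 83.8, 69.1 and 75.6 at 90 days. These ranges overlapped, and 60-day sample 2 was the highest library. The log2 differences were 0.15 (interval -0.10 to 0.40, adjusted p = 0.682) at 60 days and 0.0036 (-0.25 to 0.25, adjusted p = 0.993) at 90 days against 30 days.

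Erbb2 (ENSMUSG00000062312, chr11:98412470-98437716, plus strand), the receptor that binds no ligand itself and serves as partner of the others, measured 49.5, 47.7 and 42.5 CPM at 30 days. It measured 44.4, 42.0 and 37.2 CPM at 60 days and 42.5, 37.7 and 38.9 at 90 days. The highest 90-day library met the lowest 30-day library, so the ranges touched. At 90 against 30 days the log2 difference was -0.23 (interval -0.45 to -0.0068), with an unadjusted p of 0.044 and an adjusted p of 0.28 in edgeR's test. Scaling by library totals alone, which shifted the median of all genes by 0.24 in this comparison, gave 0.0023. Reads on Erbb2 could include some from Mien1, which overlaps it by 9 bases on the opposite strand, as the use of strand in counting is not given in the sources used here.

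Egfr (ENSMUSG00000020122, chr11:16752203-16918158, plus strand), is the receptor of EGF, TGF-alpha and amphiregulin. Its level was 20.8, 24.7 and 25.5 CPM at 30 days, 18.5, 22.7 and 25 at 60 days and 23.2, 26.1 and 24.6 at 90 days. The groups overlapped, and the log2 differences against 30 days were -0.10 (interval -0.37 to 0.17) at 60 days and 0.056 (-0.21 to 0.33) at 90 days, with adjusted p = 0.808 and 0.886. Those intervals include neither a 1.5-fold rise nor a 1.5-fold fall.

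As shares of the 4 ErbB receptors per kilobase, Erbb3 made up 52.47% ± 2.4, 57.33% ± 2.72 and 55.13% ± 1.16 at 30, 60 and 90 days (SD, n = 3). Erbb2 made up 37.13% ± 2.16, 32.6% ± 2.1 and 33.23% ± 0.586, with every 30-day library above every later one. Egfr held 8.74% ± 1.4, 8.11% ± 1.87 and 9.543% ± 1.27, and Erbb4 held 1.66% ± 0.325, 1.947% ± 0.0862 and 2.107% ± 0.644. Their sum was 24.03 ± 1.44, 24.3 ± 2.59 and 22.93 ± 1.76 CPM per kilobase.

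Tgfa (ENSMUSG00000029999, chr6:86195223-86275719, plus strand) measured 8.51, 10.0 and 9.89 CPM at 30 days, 7.55, 10.4 and 11 at 60 days and 7.72, 9.49 and 10.6 at 90 days. The groups overlapped almost fully. Its log2 difference was 0.027 (interval -0.34 to 0.40) at 60 days and -0.037 (-0.41 to 0.33) at 90 days against 30 days. Gm43917, which overlaps Tgfa on the opposite strand, had 4 counts in all 9 libraries.

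Hbegf (ENSMUSG00000024486, chr18:36504927-36515805, minus strand), whose product binds EGFR and ERBB4, measured 2.20, 2.67 and 2.01 CPM at 30 days, 1.99, 1.99 and 1.59 at 60 days and 1.15, 1.51 and 1.25 at 90 days. The 3 time points did not overlap, although 30-day sample 3 and 60-day samples 1 and 2 lay close together. These values rest on 25 to 46 counts per library. The log2 difference at 90 against 30 days was -0.81 ± 0.31 (interval -1.46 to -0.16), with an unadjusted p of 0.0172 and an adjusted p of 0.177 in edgeR's test. It was -0.31 at 60 against 30 days (adjusted p = 0.742) and -0.50 at 90 against 60 days (adjusted p = 0.587). In 18 alternative analyses the 90-day difference lay between -0.94 and -0.58 and passed the threshold in 0.

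Btc (ENSMUSG00000082361, chr5:91357261-91402994, minus strand), a ligand of EGFR and ERBB4, averaged 2.5 ± 0.170, 2.77 ± 0.423 and 2.24 ± 0.544 CPM at 30, 60 and 90 days, and its libraries ranged from 1.86 to 3.26 CPM. Its log2 differences were 0.15 (interval -0.43 to 0.73) at 60 days and -0.15 (-0.73 to 0.43) at 90 days against 30 days. Ranges overlapped in all 3 pairs of time points.

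Nrg1 (ENSMUSG00000062991, chr8:31814551-32884029, minus strand) had 105 counts in the 9 libraries together, from 2 in 30-day sample 2 to 24 in 90-day sample 3. Its level was 0.496, 0.119 and 0.888 CPM at 30 days, 0.302, 0.317 and 0.709 at 60 days and 0.202, 0.687 and 1.20 at 90 days. The spread within a time point exceeded the differences between means, and the interval at 90 against 30 days ran from -1.05 to 1.92 on the log2 scale. The parts of low counts and of variation between samples in this width were not tested. The antisense gene Gm26578 overlaps its exons by 482 bases and had 27 counts.

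Areg (ENSMUSG00000029378, chr5:91139599-91148432, plus strand) had 1, 1 and 1 counts at 30 days, 4, 0 and 0 at 60 days and 1, 2 and 0 at 90 days. Of the 9 libraries, 8 lay under the floor of 3 counts, so differences in Areg at so low a level could not be resolved at this depth. It was not tested.

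Egf (ENSMUSG00000028017, chr3:129677565-129755316, minus strand) measured 811, 1470 and 1700 CPM at 30 days, 5720, 6820 and 4940 at 60 days and 4120, 5860 and 6940 at 90 days. Every later library exceeded every 30-day library. Egf rose 4.4-fold at 60 days (log2 fold change 2.14 ± 0.26, adjusted p = 0.00129) and 4.26-fold at 90 days (2.09 ± 0.26, adjusted p = 0.00077), and both calls held in 18 of 18 alternative analyses.

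Ratios within a library do not depend on how libraries are scaled. The ratio of Egf to Egfr was 39.2, 59.5 and 66.8 at 30 days, 311, 301 and 199 at 60 days and 179, 225 and 283 at 90 days. This was 4.92-fold and 4.18-fold higher than at 30 days. The ratio of Ngfr to Erbb3 averaged 1.142 ± 0.3989, 2.343 ± 0.3528 and 2.143 ± 0.5329 (SD, n = 3), again with no overlap between 30 days and the later times. Erbb2 to Erbb3 averaged 0.71 ± 0.0738, 0.571 ± 0.0586 and 0.603 ± 0.0231, which was 0.804-fold and 0.852-fold of the 30-day ratio, also without overlap. Each of these 6 ratios against 30 days gave p = 0.1 in a two-sided exact permutation test, the smallest p that 3 libraries against 3 allow, and 0.15 after adjustment over 9 tests. At 90 against 60 days the 3 ratios gave exact permutation p-values from 0.5 to 0.8.

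The other genes of the pathways were read from fixed lists, of which 79 genes passed the filter. At 60 against 30 days 2 of the 79 rose and 2 fell, where 1.56% of all genes were called. At 90 against 60 days 1 rose and 1 fell, where 0.256% of all genes were called. At 90 against 30 days 2 rose and 1 fell, where 3.57% of all genes were called. The median log2 fold changes of the 79 were 0.017, -0.00013 and 0.013. Of 5 other receptors and co-receptors tested (Erbb4, Ntrk3, Sort1, Sorcs2 and Bex3) none was called in edgeR. Erbb4 averaged 4.978 ± 1.28, 5.852 ± 0.769 and 6.052 ± 2.19 CPM, and Ntrk3 13.93 ± 2.19, 12.72 ± 3.46 and 19.28 ± 2.5 CPM. Of the 5, only Ntrk3 had an unadjusted p under 0.05 in edgeR at 90 against 60 days, where it was higher. At 90 against 30 days Ntrk3, again higher, and Sort1, lower, had one. None had one at 60 against 30 days. Over all 15224 genes 1637, 2560 and 1883 had one, in the same order. Of 5 other ligands tested, 1 rose against 30 days at both later times, Egf, and Nrg2, Nrg4, Ntf3 and Ntf5 did not pass. Bdnf, which encodes one of the ligands of Ntrk2 and not the only one, had 2 counts in all 9 libraries.

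Of 12 genes for ligand shedding and processing, 1 was called at 90 against 30 days, against 3.57% of all genes. This was Furin, a protease that cleaves growth factor precursors, which rose. Its level was 72.7, 78.6 and 77.7 CPM at 30 days, 100, 99.7 and 94.7 at 60 days and 114, 111 and 98.5 at 90 days, with the later libraries all above the 30-day ones. The log2 fold change was 0.50 ± 0.098 (adjusted p = 0.00664), held in 18 of 18 alternatives, and at 60 days it was 0.36 (adjusted p = 0.0802). Adam17, the main sheddase of ErbB ligands, averaged 15.4, 16.9 and 19.3 CPM and Adam10 38.7, 46.4 and 44.8 CPM, and neither passed. None of 14 inhibitors and receptor turnover genes was called in edgeR. There 0, 0 and 2 had an unadjusted p under 0.05 at 60 against 30, 90 against 60 and 90 against 30 days. Over all 15224 genes 1883, 1637 and 2560 had one. Of 29 adaptors and intracellular signalling genes 1 fell at 90 against 30 days, where 3.57% of all genes were called. This was Gab1, a docking protein downstream of receptor kinases. Gab1 averaged 31.6 ± 3.05, 24.2 ± 1.69 and 22.5 ± 0.687 CPM (log2 fold change at 90 against 30 days -0.49 ± 0.11, adjusted p = 0.0176). Scaling by library totals, with the same 0.24 shift of all genes, gave -0.25 for Gab1 (adjusted p = 0.415), and the call was also lost without 30-day sample 1 (0.122) and without 90-day samples 2 (0.0762) or 3 (0.0761).

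The ERK pathway is used by both ErbB and Trk receptors. Among 14 of its feedback and output genes, 1 rose and 2 fell at 60 against 30 days, where 1.56% of all genes were called. Dusp6, a phosphatase that acts on ERK, measured 114, 97.6 and 101 CPM at 30 days, 34.7, 36.5 and 38.7 at 60 days and 75.9, 102 and 86.9 at 90 days. All 60-day libraries lay far below the others, with a log2 fold change of -1.51 ± 0.12 at 60 against 30 days (adjusted p = 6.75e-07) and 1.27 ± 0.12 at 90 against 60 days (adjusted p = 1e-05). Dusp5, a nuclear ERK phosphatase, went the other way: 16.7, 14.9 and 14.1 CPM, then 31.5, 30.6 and 32.9, then 14.6, 9.76 and 8.13. It rose by 1.06 ± 0.16 on the log2 scale (adjusted p = 0.00219) and then fell by 1.54 ± 0.16 (log2 fold change -1.54, adjusted p = 0.000133). Phlda1 averaged 220 ± 5.67, 137.7 ± 11.2 and 172.3 ± 6.27 CPM and fell at 60 days (log2 fold change -0.68 ± 0.10, adjusted p = 0.00139). In sign, 2 of the 14 were positive at 60 against 30 days and 12 of 14 at 90 against 60 days, where 60-day libraries are shared. Over all genes 7557 and 7631 of 15224 were positive in those comparisons.

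**Figure D5:**
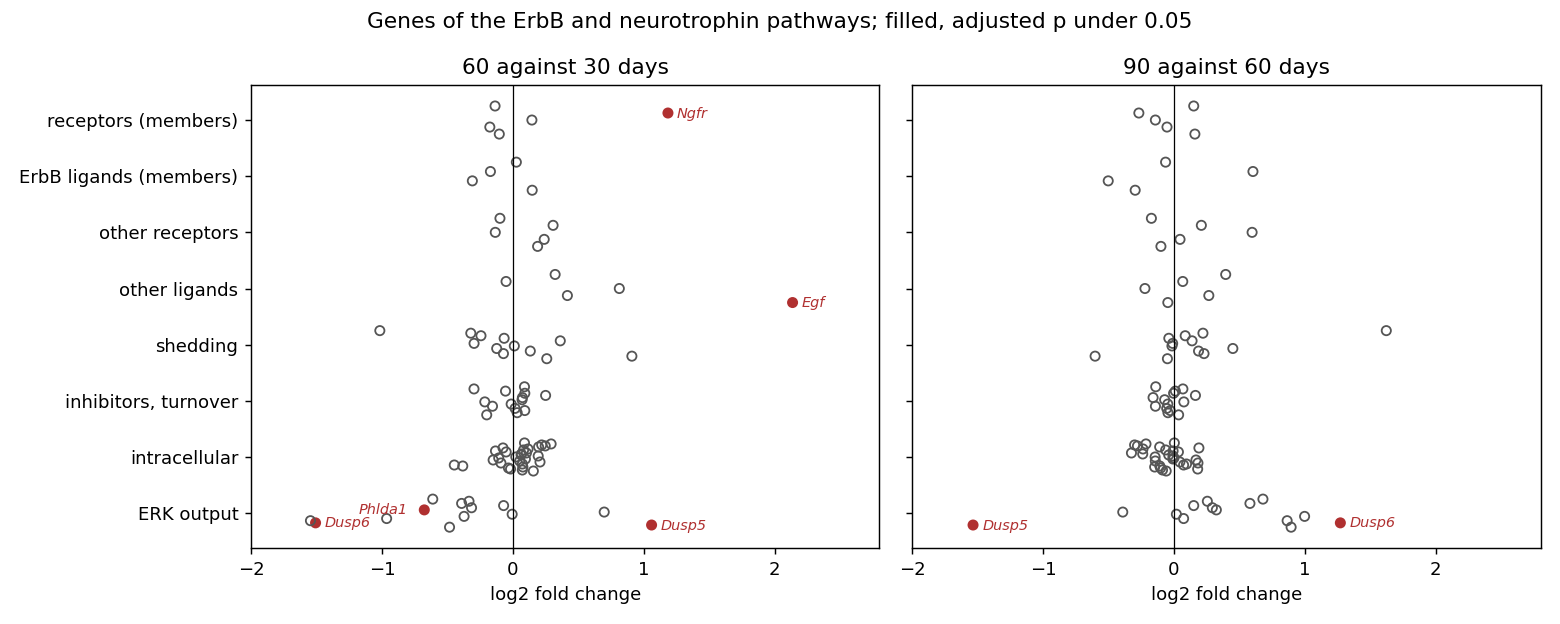
Log2 fold changes at 60 against 30 days and at 90 against 60 days of the 9 tested members and 79 other pathway genes, by list; each point is a gene, and filled points have an adjusted p under 0.05. Egf had the largest rise at 60 against 30 days, Ngfr (1.18) lay near Dusp5 (1.06), and Dusp5 and Dusp6 had opposite signs in both comparisons.

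For each member up to 2 of the most similar genes are given, those with the highest Pearson correlation of log2 CPM over the 9 libraries, among 13020 genes, given as a description, since all 9 libraries and their time points are shared. Nearest to Ngfr were Me3, a mitochondrial malic enzyme (r = 0.979), and Muc13, a membrane mucin (r = 0.978), and after removal of the time-point means these were 0.914 and 0.978. For Egfr they were Gpr37 (0.971) and Fbxo5 (0.968), for Erbb2 Bscl2 (0.979) and Slc17a5 (0.959), and for Erbb3 Pced1a (0.948). For Ntrk2 they were Wiz (0.95) and Sema7a (0.948), and for Tgfa Lbr (0.934) and Ncaph (0.918). Hbegf was nearest to Syde2 (0.933) and 2810001G20Rik (0.929), and the Syde2 value was 0.707 after removal of the time-point means. Btc was nearest to Wdr81 (0.932), and Nrg1 to Emc8 (0.944) and Pramef8 (0.903). With 9 libraries and 13020 candidates, high values occur for some genes whatever the member.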

How the data were processed

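RNA sequencing read counts per gene were deposited by the authors for irradiated submandibular glands. Reads were handled with fastp, STAR and featureCounts on mm10, per the submitters' processing notes; versions, annotation and the use of strand are not given in the sources used here. Sections of each gland gave total RNA and SMARTER libraries, per the labels' protocols. Columns were matched to the 9 samples by day and sample number; a further 3 columns match no listed sample and were not used. Symbols and positions came from GENCODE M21 (GRCm38) for 54409 of 54532 identifiers. The members and lists were chosen with earlier results of these data known.

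All 9 libraries were fitted together by time point in edgeR 4.0.16 (R 4.3.3): filterByExpr with a minimum count of 10, TMM scaling, robust quasi-likelihood tests, and Benjamini-Hochberg adjustment over 15224 genes with 0.05 as the threshold. The common biological coefficient of variation was 0.15. CPM uses TMM-scaled totals of the filtered genes, and lengths are the union of a gene's exons. Intervals are 95%. Ratios were tested by exact permutation (scipy 1.17.1).

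In data simulated for 60 against 30 days over 15224 genes, of which 200 were changed, the test recovered 59% of genes with a log2 change of 1 and 89% with a change of 2, and 6.92% of calls were unchanged genes. Reads carry no molecular identifiers, so the floor of 3 counts covers counting error only. Alternatives were DESeq2-type size factors, library totals alone, DESeq2 1.42.0, limma-voom (limma 3.58.1), no filter, at least 10 counts in every library, drawing libraries down to the smallest total, the 6 libraries compared, each library left out, and the sample number as a block. Named pathway genes are Egf and Erbb4 and, per list, up to 4 genes called in a pairwise comparison. Ntrk3, Sort1, Nrg2, Adam10, Adam17, Bdnf and the markers given with values were named after their values were seen. Nrdc is listed as Nrd1 and Ngfrap1 as Bex3, counted once. Some listed genes are not reported here. Figures were drawn with matplotlib 3.10.9.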

Additional observations from a re-analysis of the deposited data

Results flagged for a closer look

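Among the members and named pathway genes, 3 had a change from 30 to 60 days that differed from that from 60 to 90 days. This was edgeR's quasi-likelihood test, in which 60 days was set against the mean of the other time points. Dusp5 was higher at 60 days by 1.30 on the log2 scale (adjusted p = 6.94e-05). Dusp6 was lower at 60 days, with a log2 difference of -1.39 (adjusted p = 4.78e-07). Phlda1 was also lower, with a log2 difference of -0.50 (adjusted p = 0.0134), and this call was lost in 4 of 17 alternative analyses: without 30-day sample 2 (adjusted p = 0.0622), 60-day sample 2 (0.199) or 90-day sample 3 (0.0501) and with library totals alone (0.0589). No member met this criterion. Cell type markers were not in this count. Of these, the acinar markers Bhlha15 (log2 difference 0.63, adjusted p = 0.00644) and Amy1 (0.61, adjusted p = 0.0418) also passed the same test. Groups of 3 libraries are too small for the check on single outlying samples.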

How the results depend on the processing

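In the order 60 against 30, 90 against 60, 90 against 30, 60 against the mean of the others and any difference, the numbers of genes called were 238, 39, 544, 39 and 501 in the main analysis, 369, 141, 860, 129 and 847 with DESeq2, and 459, 354, 1045, 230 and 1194 with no filter. Library totals alone gave 90 at 60 against 30 days, 20 at 60 days against the mean and 277 for any difference, and moved the median of all genes to 0.17 at 90 against 60 and 0.24 at 90 against 30 days on the log2 scale. Under library totals 87.8%, 67.9% and 92.3% of calls in the 3 pairwise comparisons were rises, against 72.7%, 35.9% and 50.6% in the main analysis. Limma-voom gave 152 at 60 against 30 days and 333 for any difference. Leaving out 1 library gave 73 to 244, 16 to 103, 184 to 703, 13 to 81 and 220 to 683 genes in the same order. Members called then numbered 0 to 1 in each comparison other than 90 against 60 days, where they stayed at 0. The 6 libraries alone called 0 members at 90 against 30 days, and DESeq2, no filter and the replicate block called 1, Ngfr, at 60 days against the mean.

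Over all genes, same-numbered samples showed little shared deviation (1 of 9 pairs had a correlation over 0.1, range -0.06 to 0.191), and the numbers were not taken as pairs. The replicate block gave 92 genes at 90 against 60 days and 73 at 60 days against the mean, where the main analysis gave 39 in each. Whether some genes share variation by sample number was not tested. Under the block Ngfr differed from 30 days by 1.23 (adjusted p = 2.64e-05) and 0.93 (adjusted p = 0.000247).

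Of 634 values of members under alternatives, 579 kept their sign and side of the threshold, 43 changed sign, 8 lost a call and 4 gained one. Every change of sign, here and among the other named genes, was in a log2 fold change that passed no test. Under library totals, values at 90 against 60 days became 0.13 for Erbb2, 0.046 for Erbb3, 0.096 for Tgfa, 0.061 for Gab1 and 0.13 for Egf, those at 90 against 30 days 0.0023 for Erbb2, 0.17 for Tgfa, 0.084 for Btc and 0.00056 for Dusp6, and Tgfa at 60 days against the mean -0.0083. Erbb3 at 90 against 30 days became -0.0035 with DESeq2 and with its size factors and -0.00012 when libraries were drawn down to the smallest total, which also gave 0.12 for Nrg1 at 60 against 30 days, -0.033 for Ntrk2 at 90 against 30 days and -0.012 for Erbb4 at 60 days against the mean. Limma-voom gave 0.073 for Nrg1 at 60 against 30 days and -0.034 for Erbb4 at 90 against 60 days. Leaving out 1 library gave, at 60 against 30 days, -0.075 to 0.18 for Tgfa, -0.68 to 0.57 for Nrg1, -0.20 to 0.010 for Egfr and -0.32 to 0.056 for Ntrk2. At 90 against 30 days it gave -0.030 to 0.11 for Egfr, -0.078 to 0.073 for Erbb3, -0.12 to 0.14 for Ntrk2, -0.14 to 0.075 for Tgfa and -0.17 to 1.17 for Nrg1. At 90 against 60 days it gave -0.13 to 0.0019 for Erbb2, -0.043 to 0.33 for Ntrk2, -0.23 to 0.13 for Egf, -0.22 to 0.045 for Tgfa, -0.20 to 0.31 for Erbb4 and -0.0043 to 1.11 for Nrg1. At 60 days against the mean it gave -0.32 to 0.050 for Ntrk2, -0.054 to 0.20 for Tgfa, -0.12 to 0.014 for Erbb2 and -0.034 to 0.22 for Erbb4. The cause of these shifts was not tested. Depth limits Areg, which was not tested; Nrg1 had few counts.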
